A study of Mus musculus with 8 samples.

Results

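Lymphoid and natural killer (NK) priming genes were followed in hematopoietic stem cells (HSCs) of anemic mice, as 10 named genes out of 16729 listed in the expression tables. They are Klrb1c (NK cells), Ly6d, Il7r and Dntt (lymphoid progenitors), Ighm, Cd79a, Cd79b and Ebf1 (B cells), Ikzf1 (lymphoid specification) and Cd53 (most leukocytes). Klrb1c, Ly6d and Cd53 were selected on their rise in HSCs of the anemic spleen, so their levels in that group are given as a description without a test. The other 7 were included for their known roles, with earlier results of these data known. Rows were found for 9 of the 10 genes. Ighm is not analysed here. Of the 9, 7 reached 1 FPKM (depth-scaled fragments per kilobase of gene) in at least 2 libraries and were tested, while Il7r and Ebf1 stayed under that level.

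All libraries came from wild-type C57BL/6 mice of 8 to 12 weeks. Phenylhydrazine (PHZ), which lyses red blood cells, was injected intraperitoneally at 60 mg/kg on 2 consecutive days, and HSCs were sorted 3 days after the last dose. Cells of the marrow gave 3 libraries (labelled PHZ BM HSC, here PHZ BM), and cells of the spleen gave 2 (labelled PHZ SP HSC, here PHZ SP). Marrow HSCs of mice without PHZ, whose label names PBS, formed the remaining 3 libraries (labelled control BM HSC, here control BM). HSCs of the untreated spleen were not analysed here, so in any comparison of PHZ SP with control BM the organ and the treatment cannot be told apart. HSCs were gated as lineage-negative, Sca-1- and c-Kit-positive cells with CD150 and with little or no CD48. The lineage antibodies named in the study's methods bind Ter119, B220, Gr-1, CD2, CD3 and CD8. None of them binds the product of Klrb1c. The labels tie no library to an animal, and a general remark of the study that its numbers are independent animals gives no number for these libraries, so the p-values measure only the spread between these samples, which may be technical.

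An HSC carries low levels of transcripts from several lineages before it commits, a state called priming. On the lymphoid side, Ikaros (Ikzf1) opens lymphoid genes in multipotent progenitors, the interleukin-7 receptor (Il7r) and terminal transferase (Dntt) appear in common lymphoid progenitors, Ly6d separates those biased to the B lineage, and EBF1 then turns on Cd79a and Cd79b. The products of Cd79a and Cd79b are the signalling pair that carries surface immunoglobulin. Klrb1c encodes an activating C-type lectin receptor, the NK1.1 antigen of C57BL/6 mice, used to define NK and NKT cells. Cd53 encodes a tetraspanin, a membrane protein with 4 membrane-spanning segments that organises receptors and adhesion molecules on leukocytes.

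For Klrb1c and Cd53, which were low in resting marrow HSCs and selected on their spleen levels, the 250 bases before the transcription start are shown from the RefSeq promoter table, so that the sequence can be read beside the levels below. Klrb1c lies at chr6:128778485-128788641 on the minus strand, and its upstream bases are chr6:128788642-128788891. Cd53 lies at chr3:106758861-106790149 on the minus strand, and its upstream bases are chr3:106790150-106790399 (both GRCm38.p6, printed 5′ to 3′ along the gene). Capitals mark matches, on either strand, to 6 short motifs of hematopoietic factors.
Klrb1c: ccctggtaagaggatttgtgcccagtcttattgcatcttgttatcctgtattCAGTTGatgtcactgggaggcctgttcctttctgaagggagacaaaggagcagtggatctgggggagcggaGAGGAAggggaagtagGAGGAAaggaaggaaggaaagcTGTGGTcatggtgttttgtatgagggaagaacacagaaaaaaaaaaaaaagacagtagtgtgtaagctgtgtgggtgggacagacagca
Cd53: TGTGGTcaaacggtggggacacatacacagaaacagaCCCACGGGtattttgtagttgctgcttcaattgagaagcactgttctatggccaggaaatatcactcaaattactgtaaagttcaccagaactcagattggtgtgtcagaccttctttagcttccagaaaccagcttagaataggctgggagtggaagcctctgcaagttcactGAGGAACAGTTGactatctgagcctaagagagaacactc
Both stretches hold GAGGAA, a core bound by PU.1 and other ETS factors, which occurs in 23.25% of the 32851 promoters of the table, and TGTGGT, the RUNX core, which occurs in 14.05%. Both also hold an E-box match to CAGNTG (44.82% of promoters), which in Cd53 directly follows the ETS core without overlap. Cd53, unlike Klrb1c, has a match to the EBF motif CCCNNGGG (11.82%). The Ikaros core TGGGAA (21.59%) and the GATA motif AGATAA (9.988%) are in neither window. A match is a run of letters and not a bound site.

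The libraries held 8216626 to 13201359 recovered reads, 43.3% to 48.6% of them from the ribosomal RNA precursor gene Rn45s, and each read count below covers counting error only because the protocol has no molecular identifiers. Libraries of a group correlated with r of 0.903 to 0.976 across the 11347 genes tested, genes not being independent replicates. The closest pair was PHZ BM replicates 1 and 2.

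Klrb1c was nearly silent in resting marrow HSCs and highest in the anemic spleen. Its level was 1.40, 0.891 and 0.555 FPKM in the control BM libraries (23 to 44 reads each), 2.31, 3.07 and 2.35 FPKM in PHZ BM, and 14.7 and 18.4 FPKM in PHZ SP (531 and 618 reads). The 3 groups did not overlap, with the anemic marrow in the middle. The mean was 0.947 ± 0.423 FPKM in control BM (SD, n = 3), 2.57 ± 0.428 FPKM in PHZ BM (n = 3) and 16.6 ± 2.61 FPKM in PHZ SP (n = 2). The descriptive difference on the log2(FPKM + 1) scale was 3.19 between PHZ SP and control BM and 2.30 between PHZ SP and PHZ BM. Because the marrow levels are near the pseudocount of 1 FPKM, the first is pulled down, and it was 4.06 with a pseudocount of 0.1 FPKM and 4.25 by voom. Within the marrow, where the choice of this gene used no contrast, the difference between PHZ BM and control BM was 0.89 ± 0.25 on that scale (SE, limma adjusted p = 0.0890, 95% interval 0.35 to 1.44), which did not pass the threshold of 0.05. With the lower pseudocount it was 1.42 and by voom 1.55, with adjusted p of 0.0713 and 0.223. The control libraries of this test also entered the difference on which Klrb1c, Ly6d and Cd53 were selected, so tests of these genes within the marrow are not fully independent of that choice. In a bulk library, more cells that express a gene and more RNA of it per cell cannot be told apart. The gene body of Klrb1c overlaps Gm44511, a protein-coding gene on the same strand, and belongs to a multigene family, so its reads could be shared and its level is uncertain to that extent.

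**Figure D1:**
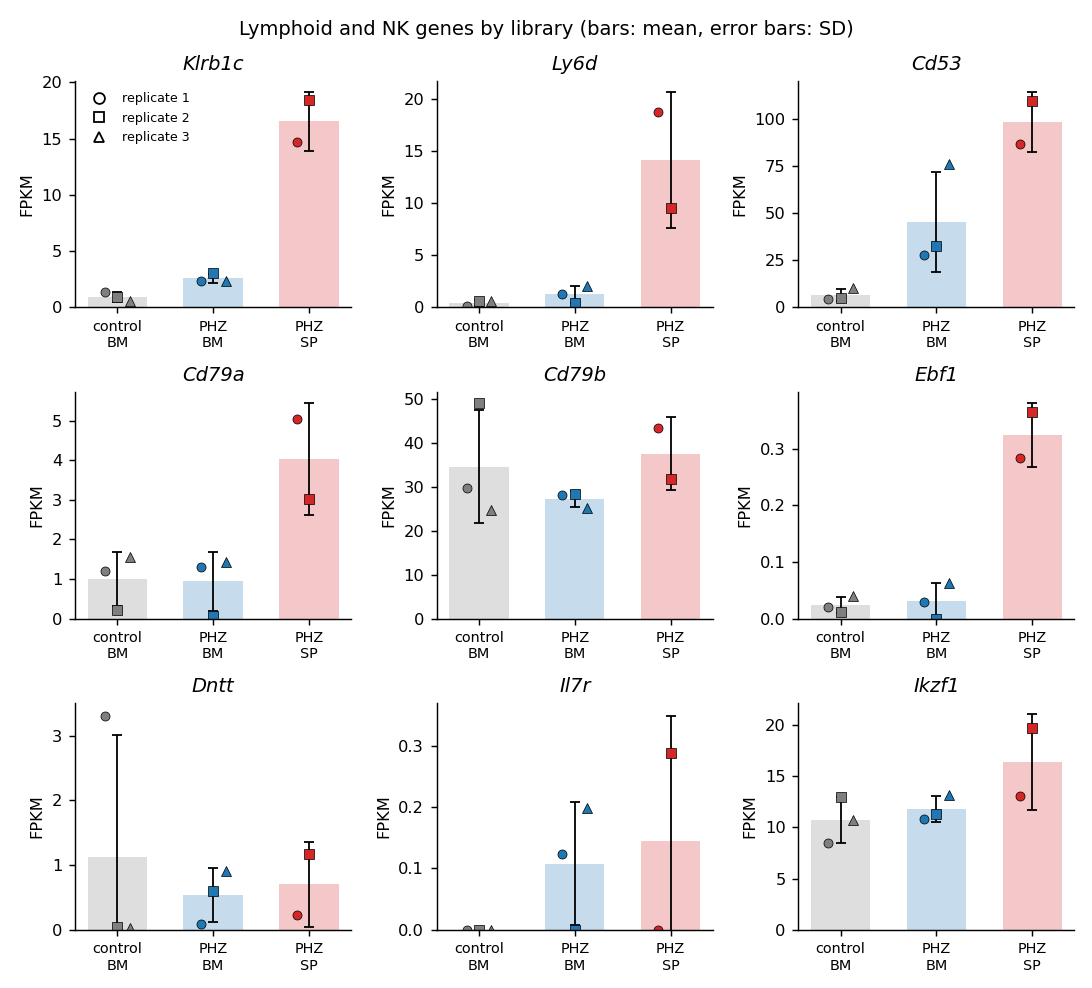
FPKM of the 9 listed genes in each library (vertical axes, linear from 0, a scale per gene), with the group mean as a bar and the SD as an error bar (n = 3, 3 and 2). Klrb1c, Ly6d, Cd53, Cd79a and Ebf1 are higher in both PHZ SP libraries than in all 6 marrow libraries, while Cd79b, Dntt, Il7r and Ikzf1 overlap between PHZ SP and the marrow.

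The NKR-P1 family, to which Klrb1c belongs, and the C-type lectins that serve as ligands within it were represented by 10 genes, of which 4 had rows in all 3 tables and 2 were tested. Clec2d, a C-type lectin that serves as a ligand of inhibitory NKR-P1 receptors, stood at 23.3, 19.5 and 17.4 FPKM in control BM, at 49.6, 50.3 and 46.2 FPKM in PHZ BM and at 25.2 and 30.3 FPKM in PHZ SP. It rose in PHZ BM over control BM by 1.25 ± 0.16 on the log2(FPKM + 1) scale (SE, limma adjusted p = 0.00290), and the call held in all 16 alternatives. Its difference between PHZ SP and control BM was 0.45 ± 0.18 (adjusted p = 0.258). Klrb1f, another member of the family, was at 0 in both PHZ SP libraries and at 0.659, 1.42 and 0.840 FPKM in PHZ BM. It was singled out after its values were seen.

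Most other NK and innate lymphoid genes were low. Of 30 listed genes, 22 had rows in all 3 tables, and the group mean reached 1 FPKM for 6 of the 22 in control BM and for 10 in PHZ SP. Of the 9 tested, none passed the threshold in any of the 3 comparisons by limma or by voom on recovered reads. At an unadjusted limma p under 0.05 there were 3 for PHZ SP against control BM (Fcgr3, Nfil3 and Tyrobp) and 1 in each other comparison. Fcgr3 reached the level for testing only with the spleen libraries, and the other 8 had a median difference of 0.47 between PHZ SP and control BM on the log2(FPKM + 1) scale, 5 of them positive, with the median of all genes tested at 0.00. Klrd1, Il2rb, Nfil3 and Tyrobp, 4 of the 22 (18.2%), were higher in both spleen libraries than in all marrow libraries, against 6.65% of the 15142 genes listed in all 3 tables. Nkg7, a cytotoxic granule protein, had 26.9 and 27.9 FPKM in PHZ SP against 19.1 to 59.7 FPKM in control BM. Tyrobp, the DAP12 adaptor shared with myeloid cells, had 18.8 and 22.8 FPKM against 8.79 to 13 FPKM. Of the defining NK genes, Prf1 (perforin) was at 0 in both spleen libraries, Ncr1 at 0 and 0.0624 FPKM, and Klrk1 at 0 and 0.512 FPKM. Klrd1 was at 1.12 and 0.750 FPKM there, against 0 to 0.425 FPKM in the marrow libraries, and Il2rb, an interleukin-2 and interleukin-15 receptor chain, at 0.793 and 0.112 FPKM against at most 0.0726 FPKM. Gzmb (granzyme B) was at 0 and 2.07 FPKM in the spleen and at most 0.970 FPKM in the marrow, and the chemokine gene Ccl5 at 6.52 and 1.40 FPKM against 0 to 2.28 FPKM. Gzma (granzyme A) was at 0 and 3.92 FPKM in the spleen, above 0 in replicate 2 alone, and at 0 to 0.696 FPKM in the marrow. Between the spleen libraries, Klrd1, Il2rb and Ccl5 were higher in replicate 1, and Gzma, Gzmb, Klrk1, Ncr1 and Klrb1c in replicate 2. The part of NK cells in the level of Klrb1c was not tested. The summed level of the 22 genes was 41.1 to 90.2 FPKM in control BM, 58.2 to 83.0 FPKM in PHZ BM and 74.0 to 82.9 FPKM in PHZ SP, which overlap.

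Ly6d, a GPI-anchored surface protein of the Ly6 family, had the widest relative range of the members chosen on their spleen values. It was at 0.137, 0.595 and 0.627 FPKM in control BM (1, 4 and 6 reads), at 1.28, 0.429 and 2.08 FPKM in PHZ BM (10, 3 and 20 reads) and at 18.8 and 9.56 FPKM in PHZ SP (156 and 74 reads). The spleen libraries were apart from the marrow, and the marrow groups overlapped. The descriptive difference on the log2(FPKM + 1) scale was 3.33 between PHZ SP and control BM and 2.74 between PHZ SP and PHZ BM, values that the pseudocount of 1 FPKM pulls down because the marrow levels are near or below it. With a pseudocount of 0.1 FPKM they were 4.77 and 3.53. Between PHZ BM and control BM the difference was 0.59 ± 0.35 (SE, limma adjusted p = 0.430, 95% interval -0.18 to 1.36), or 1.24 with the lower pseudocount and 1.35 by voom (adjusted p of 0.366 and 0.656). Ly6d lies at chr15:74762056-74763567 on the minus strand (GRCm38.p6) and overlaps no other annotated gene.

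Among 14 further Ly6 family genes, 7 had rows in all 3 tables, 5 were tested and none passed the threshold in any comparison by limma or voom. Ly6c1 reached the level for testing only with the spleen libraries, and the other 4 had a median difference of 0.8 between PHZ SP and control BM on the log2(FPKM + 1) scale. Ly6a, Ly6g and Ly6c2 had an unadjusted limma p under 0.05, as did Ly6c1. Ly6e was the highest, at 217 to 231 FPKM in control BM, 205 to 304 FPKM in PHZ BM and 256 and 290 FPKM in PHZ SP. Ly6a, which encodes the Sca-1 antigen used in the gate, was at 85.6 to 148 FPKM in control BM, 95.2 to 177 FPKM in PHZ BM and 176 and 234 FPKM in PHZ SP. Its difference between PHZ SP and control BM was 0.79 (adjusted p = 0.199).

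Cd53 was the member that passed the test within the marrow. It stood at 4.70, 5.14 and 10.4 FPKM in control BM, at 28.0, 32.8 and 76.3 FPKM in PHZ BM and at 87.2 and 110 FPKM in PHZ SP, with 80 to 234, 512 to 1719 and 1699 to 1996 reads. The 3 groups did not overlap, and PHZ BM replicate 3 lay nearer to the spleen libraries than to the other 2 libraries of its group. Cd53 rose in PHZ BM over control BM by 2.52 ± 0.36 on the log2(FPKM + 1) scale (SE, limma adjusted p = 0.00433), a 5.74-fold change of FPKM + 1 with a 95% interval of 3.33 to 9.91. Of the 7 tested members Cd53 was the only one called in this comparison, in which 2.74% of all genes tested were called. The control libraries also entered the selection of Cd53, so this test is not fully independent of that choice. Without PHZ BM replicate 3 the difference was 2.09 (adjusted p = 0.00687), and over the 16 alternatives it ranged from 2.09 to 2.84 with adjusted p from 0.0001 to 0.0251. The descriptive difference was 3.75 between PHZ SP and control BM and 1.23 between PHZ SP and PHZ BM.

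**Figure D2:**
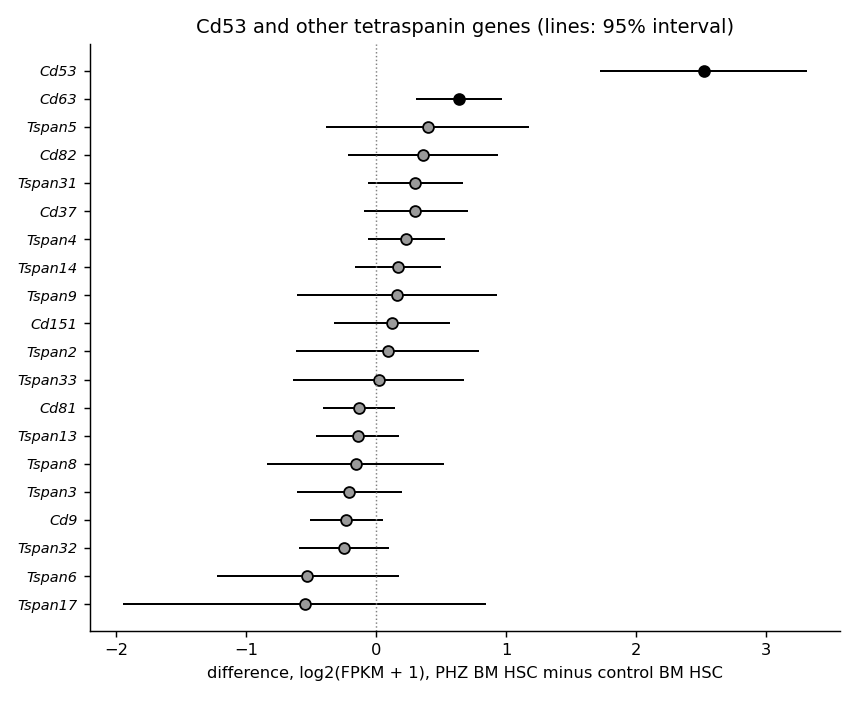
Difference between PHZ BM and control BM on the log2(FPKM + 1) scale (horizontal axis) for Cd53 and 19 other tetraspanin genes, with 95% intervals as lines and filled black points for limma adjusted p below 0.05. Cd53 is at 2.52, Cd63 at 0.64, and the other 18 lie between -0.55 and 0.40 without passing the threshold.

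The change of Cd53 was set beside 20 other tetraspanin genes, of which 19 were tested. Between PHZ BM and control BM, 1 of the 19 was called, and their median difference was 0.09 on the log2(FPKM + 1) scale. The called gene was Cd63, a tetraspanin of lysosomes and granules, which went from 126, 173 and 131 FPKM to 216, 196 and 253 FPKM (0.64 ± 0.15, SE, limma adjusted p = 0.0478). That call held in 3 of 16 alternatives and, among the 8 refits omitting 1 library each, in the one without control BM replicate 2, with adjusted p up to 0.149. Its PHZ SP levels were 136 and 130 FPKM, within the control range. None of the 19 was called in PHZ SP against either marrow group by limma or voom, with 4 (control BM) and 5 (PHZ BM) at an unadjusted limma p under 0.05. Cd37, another leukocyte tetraspanin, was at 16.4 to 19.2 FPKM in control BM, 21.7 to 23.8 FPKM in PHZ BM and 23.2 and 16.3 FPKM in PHZ SP, and was singled out after its values were seen.

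Further pan-leukocyte genes differed less than Cd53 between PHZ BM and control BM. Between PHZ SP and PHZ BM, Cd48 differed by 1.75 on the log2(FPKM + 1) scale, more than Cd53 (1.23). Of 21 listed, 20 were tested, and Arhgap45 (a GTPase-activating protein of blood cells) was the one called, in PHZ BM over control BM by 0.93 ± 0.20 on the log2(FPKM + 1) scale (SE, limma adjusted p = 0.0361). The call held in 10 of 16 alternatives and was lost with no filter on low values, by quantile normalization, and without control BM replicate 1 or 2 or PHZ BM replicate 1 or 2, with adjusted p up to 0.156. The median difference of the 20 genes was 0.12 in that comparison and, for the 19 that reached the level for testing in the marrow alone, 0.32 between PHZ SP and control BM, where 16 of the 19 were positive. In the latter comparison 8 of the 20 had an unadjusted limma p under 0.05 and none was called by limma or voom. Both spleen libraries lay above all 6 marrow libraries for 12 of the 20 genes (60%), against 6.65% of all listed genes. Ptprc (CD45) was among them with a narrow gap, at 12.7 to 15.9 FPKM in the marrow libraries and 18.5 and 18.6 FPKM in the spleen. Cd48, whose product was gated to be low or absent, was at 0 to 2.75 FPKM in control BM, 0.179 to 3.38 FPKM in PHZ BM and 7.07 and 8.16 FPKM in PHZ SP, a difference of 2.09 ± 0.59 from control BM (SE, limma adjusted p = 0.121). The part of the CD48 gate in the members' levels was not tested.

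**Figure D3:**
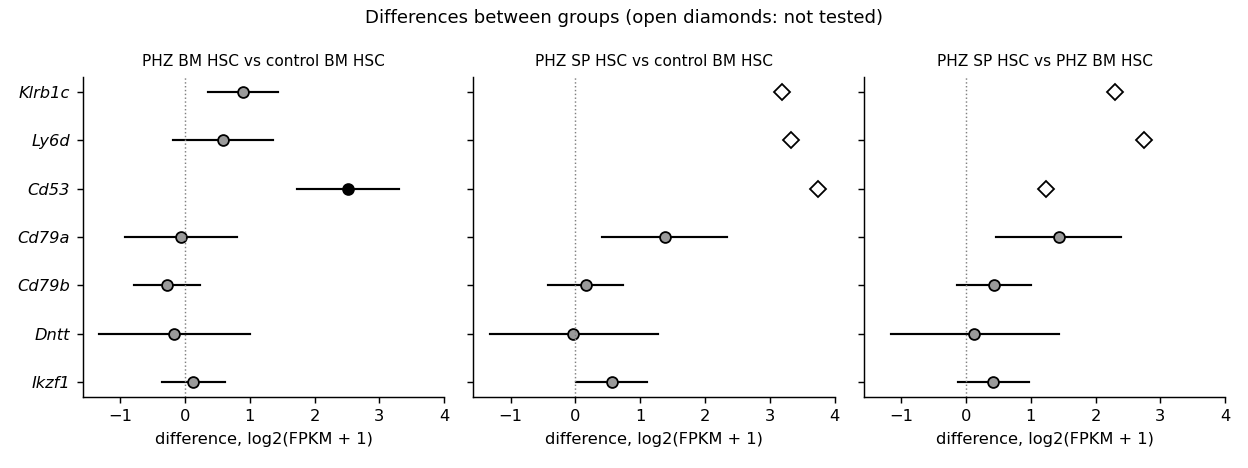
Differences on the log2(FPKM + 1) scale (horizontal axes) of the 7 tested members in the 3 comparisons, with lines for 95% intervals and a filled black point for limma adjusted p below 0.05. Open diamonds mark the members selected on their spleen values, shown without interval or test, and Cd53 between PHZ BM and control BM (2.52) is the one black point.

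The B cell members differed in their patterns. Cd79a was low in the marrow, at 1.19, 0.228 and 1.55 FPKM in control BM (17, 3 and 29 reads) and 1.31, 0.0731 and 1.43 FPKM in PHZ BM (20, 1 and 27 reads), and reached 5.03 and 3.03 FPKM in PHZ SP (82 and 46 reads). Both spleen libraries were above all marrow libraries. The difference between PHZ SP and control BM was 1.38 ± 0.44 on the log2(FPKM + 1) scale (SE, 95% interval 0.41 to 2.34), with an unadjusted limma p of 0.00941 and an adjusted p = 0.162. Against PHZ BM it was 1.44 ± 0.44 (adjusted p = 0.175), and between the marrow groups it was -0.06 ± 0.39 (adjusted p = 0.957). With a pseudocount of 0.1 FPKM the spleen differences were 2.18 and 2.48, and by voom 2.24 and 2.64. The adjusted p of the comparison with control BM ranged from 0.0693 to 0.502 over the 16 alternatives, so the higher level in the spleen held in 2 of 2 libraries but never passed the threshold.

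Cd79b, the partner of Cd79a in the receptor, was expressed throughout at a far higher level per length. It was at 29.9, 49.2 and 24.8 FPKM in control BM, 28.3, 28.4 and 25.2 FPKM in PHZ BM and 43.5 and 31.8 FPKM in PHZ SP. The groups overlapped, and the difference between PHZ SP and control BM was 0.16 on the log2(FPKM + 1) scale (95% interval -0.42 to 0.73, limma adjusted p = 0.812). The interval against PHZ BM was -0.14 to 1.01 (adjusted p = 0.509) and that between the marrow groups was -0.79 to 0.24 (adjusted p = 0.608). The mean level of Cd79b was 34.7 ± 12.9 FPKM in control BM against 0.990 ± 0.683 FPKM for Cd79a (SD, n = 3 each).

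Ebf1, the transcription factor that drives B cell commitment, was close to the limit of detection in the marrow and low in the spleen. It had 2, 1 and 5 reads in control BM, 3, 0 and 8 reads in PHZ BM and 31 and 37 reads in PHZ SP, or 0.284 and 0.364 FPKM in the spleen and at most 0.0634 FPKM in the marrow. The 3 control libraries together held 8 reads of Ebf1 among 30286082, the 3 PHZ BM libraries 11 among 32244146 and the 2 spleen libraries 68 among 21558121. The gene was not tested by the main rule. In the fit without a filter on low values its difference between PHZ SP and control BM was 0.37 ± 0.09 on the log2(FPKM + 1) scale (SE, limma adjusted p = 0.132). An antisense gene, Gm12158, overlaps the locus (chr11:44618100-45008096, plus strand, GRCm38.p6), and with strand handling not given in the sources used here reads of either gene cannot be told apart.

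Of the 6 listed members that were not chosen on their values, Cd79a and Ebf1 were higher in both spleen libraries than in all 6 marrow libraries, against the same 6.65% of all listed genes. By limma, none of the 4 such members tested was called in PHZ SP against control BM, where 0.758% of genes were called, or against PHZ BM, where 0.978% were. At an unadjusted p under 0.05 there were 2 in the first comparison (Cd79a and Ikzf1) and 1 in the second (Cd79a), beside 1791 and 1530 of 11347 genes. The voom alternative on recovered reads also called none. Between PHZ BM and control BM, 0 of these 6 members were higher in all PHZ BM than in all control libraries, against 10.7% of all listed genes. Klrb1c and Cd53, whose selection used the control libraries, were.

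Most other B lineage genes were below 1 FPKM on average in the marrow, with Cd74 and Cd72 (2.75 to 8.96 FPKM) as the exceptions. Of 30 listed, 23 had rows in all 3 tables, and 8 of the 23 (34.8%) were higher in both spleen libraries than in all marrow libraries, against 6.65% of all listed genes. Among these were Pax5, Ms4a1, Bank1, Fcer2a, Rag2, Jchain and Cd74. Pax5, the factor that maintains B cell identity, was low throughout. It was at 0.222 and 0.185 FPKM in the spleen, against 0 to 0.00879 FPKM in control BM and 0.108 to 0.12 FPKM in PHZ BM. Ms4a1 (CD20) was at 3.06 and 0.792 FPKM there, against at most 0.327 FPKM in the marrow.

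Of the 8 B lineage genes tested, 1 was called by limma, Cd74, the invariant chain of MHC class II, which is also expressed by other antigen-presenting cells. Cd74 was at 86.5, 97.2 and 86.1 FPKM in control BM, 72.6, 54.9 and 61.5 FPKM in PHZ BM and 125 and 129 FPKM in PHZ SP. It was higher in PHZ SP than in PHZ BM by 1.0 ± 0.15 on the log2(FPKM + 1) scale (SE, adjusted p = 0.0146), a call that was lost without PHZ BM replicate 2 or either spleen library, with adjusted p up to 0.155. Between PHZ SP and control BM none of the 8 was called by limma or voom, and 4 had an unadjusted p under 0.05 (among them Jchain, Cd74 and Bank1). Of the 8, 6 reached the level for testing only with the spleen libraries, so no median is given for the list, and the other 2 were Cd74 (0.49) and Cd72 (0.36). Summed over the 23 genes, of which Cd74 made up the larger share, the level was 99.7 to 104 FPKM in control BM, 68.9 to 86.6 FPKM in PHZ BM and 147 and 167 FPKM in PHZ SP, with Rag2 and Fcrla at 0 in all control libraries and no gene at 0 in both spleen libraries. These B lineage values were higher in the spleen libraries together with Ly6d, Cd79a and Ebf1, and their part in those levels was not tested.

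The kinases and adaptors downstream of Cd79a and Cd79b were present in all groups, apart from the B cell members Blnk and Blk, which stayed under 1 FPKM in every library. Of 13 listed, 11 were tested, and Ptpn6 (the phosphatase SHP-1, a brake on receptor signalling) was the one called. It rose in PHZ BM over control BM from 66.2, 71.1 and 66.7 to 117, 121 and 93.0 FPKM, by 0.68 ± 0.14 on the log2(FPKM + 1) scale (SE, limma adjusted p = 0.0223), a call that was lost without control BM replicate 1 or 3 or PHZ BM replicate 1 or 2, with adjusted p up to 0.145. It was at 103 and 102 FPKM in PHZ SP, with an adjusted p = 0.0989 against control BM. The median difference from control BM was 0.37 in PHZ BM over the 11 genes and 0.05 in PHZ SP over the 10 that reached the level for testing in the marrow alone.

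Il7r was barely detected. It had 0 reads in all 3 control libraries, 3, 0 and 6 reads in PHZ BM and 0 and 7 reads in PHZ SP, at most 0.289 FPKM. A count of 0 allows up to 3 reads, which for Il7r is 0.10 to 0.142 FPKM in the control libraries and 0.115 FPKM in PHZ SP replicate 1, so no difference between groups was detectable at this depth. Its signalling partners were expressed in all groups. Il2rg, the common gamma chain shared by several interleukin receptors, was at 24.5, 31.1 and 36.0 FPKM in control BM, 37.5, 38.1 and 43.6 FPKM in PHZ BM and 79.4 and 62.2 FPKM in PHZ SP. It rose in PHZ SP over control BM by 1.19 ± 0.20 on the log2(FPKM + 1) scale (SE, limma adjusted p = 0.0240). That call held in 10 of 16 alternatives and was lost with no filter on low values, in a fit of the 2 groups alone, and without control BM replicate 2, PHZ BM replicate 2 or either spleen library, with adjusted p up to 0.222. Socs3, a feedback inhibitor of cytokine signalling, rose in PHZ BM over control BM by 2.36 ± 0.43 (adjusted p = 0.0138), from 0.945 to 2.38 FPKM up to 6.17, 9.88 and 25.7 FPKM. Its call was lost by voom, with no filter on low values and without control BM replicate 1 or 3, with adjusted p up to 0.0704. These were the 2 genes called among the 14 of the interleukin-7 receptor pathway list, all of which were tested.

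Dntt, the template-independent polymerase of antigen receptor rearrangement, was uneven between libraries. It was at 3.30, 0.0483 and 0.0339 FPKM in control BM (74, 1 and 1 reads), 0.0832, 0.604 and 0.911 FPKM in PHZ BM (2, 13 and 27 reads) and 0.234 and 1.17 FPKM in PHZ SP (6 and 28 reads). The highest and the lowest value over the 8 libraries were both in control BM. No comparison passed the threshold, with an adjusted p = 0.916 between the marrow groups and 0.991 between PHZ SP and control BM by limma, and the 95% interval of the latter was -1.32 to 1.27 on the log2(FPKM + 1) scale. The recombinase genes Rag1 and Rag2, which act with Dntt, were at most 0.118 and 0.444 FPKM in any library.

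Of 24 lymphoid priming genes, 16 were tested. Beside Il2rg in the spleen, Cd27 and Spi1 were called, both in PHZ BM over control BM. Cd27, a receptor of the TNF family carried by lymphoid-biased progenitors, went from 46.2, 46.2 and 55.2 FPKM to 104, 91.4 and 89.3 FPKM (0.93 ± 0.14 on the log2(FPKM + 1) scale, SE, limma adjusted p = 0.00477). The call held in all 16 alternatives. In PHZ SP it was at 60.8 and 62.7 FPKM, with a difference of 0.33 from control BM (adjusted p = 0.326). Spi1, which encodes PU.1, went from 29.3, 23.9 and 30.8 FPKM to 46.7, 43.9 and 52.2 FPKM (0.75 ± 0.16, adjusted p = 0.0268) and was at 47.4 and 43.0 FPKM in PHZ SP. Its call was lost without control BM replicate 1 or 2 or any PHZ BM library, with adjusted p up to 0.113. The median difference from control BM was 0.32 in PHZ BM over the 16 genes and 0.33 in PHZ SP over the 15 that reached the level for testing in the marrow alone, where the medians of all genes tested were 0.01 and 0.00.

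Ikzf1 was expressed in every group. It was at 8.45, 13 and 10.7 FPKM in control BM, 10.8, 11.3 and 13.2 FPKM in PHZ BM and 13.1 and 19.7 FPKM in PHZ SP. PHZ BM overlapped both other groups, and the lower spleen library was barely above the highest control library. Its difference between PHZ SP and control BM was 0.56 ± 0.25 on the log2(FPKM + 1) scale (SE, 95% interval 0.01 to 1.1), with an unadjusted limma p of 0.0451 and an adjusted p = 0.306. The 95% interval between the marrow groups was -0.35 to 0.62 (adjusted p = 0.817). Of 15 genes of the Ikaros family and the nucleosome remodelling complex that binds it, 14 were tested and none was called in any comparison by limma, with 1 to 2 per comparison at an unadjusted p under 0.05. By voom Rbbp4 was called between the marrow groups, where its limma difference was -0.67 (adjusted p = 0.0516). Rbbp7 and Mta2, subunits of that complex, had the highest mean levels, with Rbbp7 at 45.7 to 65.4 FPKM in the marrow libraries and 73.8 and 78.2 FPKM in the spleen. Ikzf3 (Aiolos), which appears later in B cells, was at most 0.0622 FPKM in the marrow and at 0.490 and 0.165 FPKM in the spleen. Antisense genes Gm11999 and Gm12000 overlap Ikzf1 (chr11:11684962-11772930, plus strand, GRCm38.p6), with the same limit as for Ebf1.

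Ordered by mean FPKM, PHZ SP ran from Cd53 (98.7) over Cd79b (37.6), Klrb1c (16.6), Ikzf1 (16.4), Ly6d (14.2), Cd79a (4.03), Dntt (0.704) and Ebf1 (0.324) to Il7r (0.144). Klrb1c, Ikzf1 and Ly6d overlapped there, as did Dntt, Ebf1 and Il7r. In control BM the order began with Cd79b (34.7), Ikzf1 (10.7) and Cd53 (6.76), of which Ikzf1 and Cd53 overlapped, while Dntt, Cd79a, Klrb1c and Ly6d had means of 0.453 to 1.13 FPKM and overlapped one another. The places of Cd53, Klrb1c and Ly6d in the spleen follow from how these genes were selected.

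Transcripts of other cell types were higher in the spleen libraries as well, and their part in the members' levels was not tested. Of 14 tested erythroid genes, 13 reached the level for testing in the marrow alone, and of these 7 rose in PHZ SP over control BM by limma and 6 by voom (all but Klf1), with a median difference of 2.07 over the 13 on the log2(FPKM + 1) scale. The 7 calls held in 7 (Klf1) to 16 (Cldn13) of 16 alternatives. Slc4a1, the red cell anion exchanger, rose by 2.51 (adjusted p = 0.00390). Of 12 tested neutrophil genes, 2 rose in the same comparison, S100a8 by 1.72 (adjusted p = 0.0422) and Retnlg by 2.60 (adjusted p = 0.0470), where voom called S100a8 and S100a9, and Prtn3 rose in PHZ BM over control BM by 0.96 (adjusted p = 0.00750). The call of Slc4a1 was lost without either spleen library, with adjusted p up to 0.0535 over the alternatives. Those of S100a8 and Retnlg were each lost without any 1 control or spleen library, and that of Retnlg also without PHZ BM replicate 2, with adjusted p up to 0.181 for each. Counting the other settings too, the calls of Slc4a1, S100a8 and Retnlg held in 14, 8 and 5 of 16 alternatives. The summed neutrophil level was 764, 524 and 448 FPKM in control BM, 525, 558 and 1115 FPKM in PHZ BM and 1471 and 1904 FPKM in PHZ SP. In PHZ BM, replicate 3 was the highest in this sum and in Cd53. In control BM, replicate 3 was the lowest in the sum and the highest in Cd53. Of 23 T lineage genes 4 were tested and none was called by limma or voom (at most 2 per comparison at an unadjusted p under 0.05), with Cd3e at most 0.679 FPKM and Cd8a at most 0.157 FPKM in any library. Summed T lineage levels were 17.0 to 24.6 FPKM in control BM, 22.2 to 23.9 FPKM in PHZ BM and 26.4 and 31.8 FPKM in PHZ SP. Lck, a T cell kinase, was at 12.6 and 3.84 FPKM in PHZ SP and at 1.82 to 5.34 FPKM in the marrow, so the spleen libraries differed in it. Lat, an adaptor of the T cell receptor and the highest of the list, was at 11.2 to 16.0 FPKM in the marrow and lower in the spleen, at 10.5 and 7.78 FPKM (-0.60 against PHZ BM, unadjusted p = 0.0181). Thy1 was at 1.42 to 3.81 FPKM in the marrow and 4.70 and 7.33 FPKM in the spleen (1.0 against control BM, unadjusted p = 0.0133). With Cd3d, Cd3g and Lef1, it was among 4 of 17 genes (23.5%) higher in both spleen libraries than in all marrow libraries, against 6.65% of all listed genes, with Cd3d at 1.23 and 0.953 FPKM in the spleen and at most 0.767 FPKM in the marrow. None of the 7 tested macrophage genes or the 5 tested plasmacytoid dendritic cell genes was called in any comparison by limma or voom, with at most 3 and 2 per comparison at an unadjusted p under 0.05. Both spleen libraries were above all marrow libraries for 71.4% of 14 erythroid, 30.8% of 13 neutrophil, 28.6% of 14 macrophage, 25% of 12 plasmacytoid dendritic cell and 33.3% of 15 HSC identity genes, so the 34.8% of the B lineage list was within the range of these lists. Cd68, a lysosomal protein of macrophages, was at 0 to 8.48 FPKM in control BM, 4.93 to 16.7 FPKM in PHZ BM and 34.4 and 57.6 FPKM in PHZ SP. Lyz2 (lysozyme), the highest of the macrophage list, was at 181 to 281 FPKM in the marrow and 310 and 287 FPKM in the spleen, whereas C1qb, a complement component made by tissue macrophages, was at 0.188 to 3.52 FPKM in the marrow and 0.0822 and 0 FPKM in the spleen. Of the plasmacytoid dendritic cell genes, Bst2 was at 65.3 to 76.0 FPKM in the marrow and 86.1 and 81.6 FPKM in the spleen, and Runx2 at 4.65 to 7.11 FPKM and 4.99 and 4.69 FPKM. The 15 HSC identity genes were all tested and none was called by limma, with 2 to 8 per comparison at an unadjusted p under 0.05 and Procr called by voom between PHZ SP and control BM. They had summed levels of 493 to 627, 541 to 693 and 616 to 645 FPKM.

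**Figure D4:**
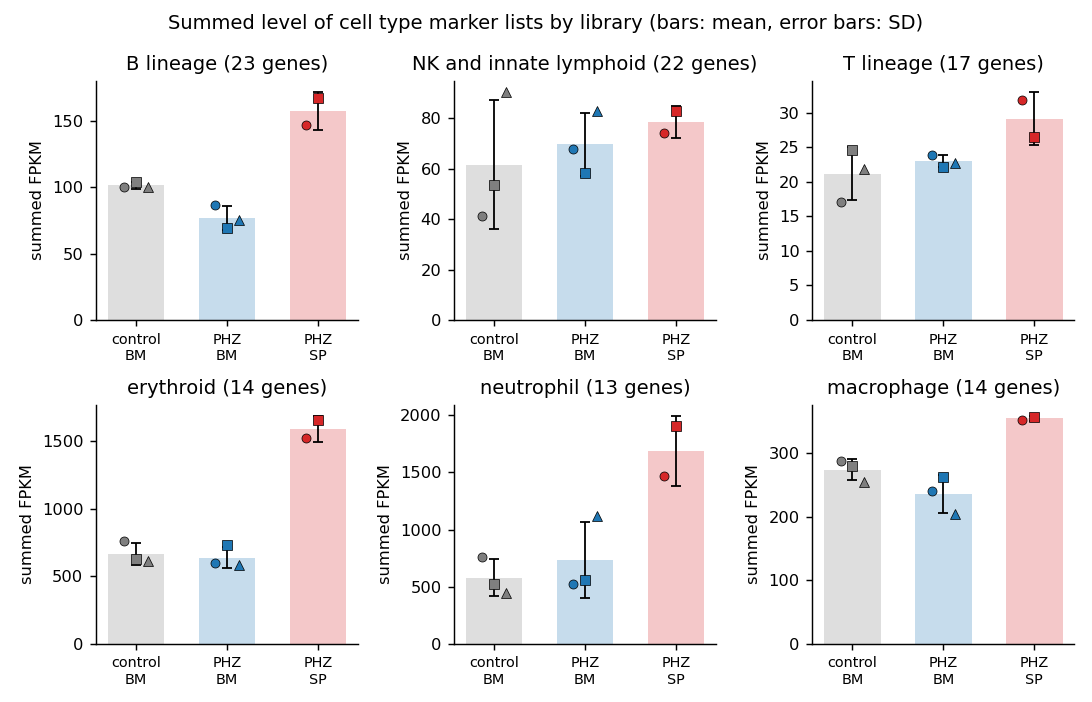
Summed FPKM of 6 cell type marker lists in each library (vertical axes, linear from 0), with the group mean as a bar and the SD as an error bar (n = 3, 3 and 2). B lineage, T lineage, erythroid, neutrophil and macrophage sums are higher in both PHZ SP libraries than in all marrow libraries, and NK and innate lymphoid sums overlap.

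The genes whose pattern was most like that of each member were taken as the 3 with the highest Pearson r of log2(FPKM + 1) over the 8 libraries, which fall into 3 groups and share depth, so r is given without a test. For Klrb1c, Ly6d and Cd53, selected on their spleen levels, a gene most alike is one that is also high there. Klrb1c went with Prr13 (r = 0.988), Adgre5 (CD97, 0.972) and Lgmn (the lysosomal protease legumain, 0.972). Lgmn was at 0.617 to 0.938 FPKM in control BM, 1.51 to 1.80 FPKM in PHZ BM and 9.97 ± 0.114 FPKM in PHZ SP (SD, n = 2). Ly6d went with Plek2 (0.977), Add2 (the membrane skeleton protein adducin 2, 0.974) and Lgmn (0.972). Plek2 was at 0 in all control libraries and at 8.98 and 3.16 FPKM in PHZ SP, higher in replicate 1 as Ly6d was.

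Cd53 went with Fxyd5 (0.988), Alox5ap (0.971), the 5-lipoxygenase activating protein, and Zfp52 (0.970). Alox5ap was at 118 to 137 FPKM in control BM, 165, 191 and 256 FPKM in PHZ BM and 213 and 241 FPKM in PHZ SP, with replicate 3 again the highest of its group. Cd79a went with Itgav (0.984), Isy1 (0.977) and Taf9b (0.946), Cd79b with Acer3 (0.984), Spata48 (0.969) and Napg (0.942), and Ikzf1 with Wdr89 (0.986), Plk3 (0.942) and Trib1 (0.941). None of these 9 belongs to the B lineage list.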

How the data were processed

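RNA-seq of sorted HSCs was analysed in 8 libraries of 3 groups, with group and replicate number taken from the sample titles. Marrow columns named WBM were taken as the marrow HSC samples. The authors prepared cDNA by SMART-Seq2, mapped reads to mm10 with STAR and compared groups with DESeq2. The counter, annotation and strand handling are not given in the sources used here. The authors deposited FPKM values in a table per group, scaled separately. Their deposited DESeq2 comparisons hold fold changes and p-values, which were not used.

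Each FPKM above 0 was a whole multiple of the value of 1 read (110442 of 110442 values, tolerance 0.001), so reads were recovered, up to an open common factor for 1503 genes. Values were brought to a common median-of-ratios scale, which moved no library by more than 1.05%. A count test was not the main test because the unit was FPKM. limma 3.58.1 (R 4.3.3, trend and robust) was fitted on log2(FPKM + 1) over all 8 libraries, for 11347 of 15142 genes in all 3 tables with 1 FPKM in at least 2 libraries, two-sided with Benjamini-Hochberg adjustment and a threshold of 0.05. Fold changes on this scale understate changes of low genes. The fit was tested on simulated data.

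The 10 genes and the 16 companion lists (267 genes, 229 in all 3 tables) were chosen with earlier results of these data known. The rule named every member, from each list at most 6 genes past the threshold or else the 2 highest, and the 3 genes most alike. The defining markers and examples given beyond it were chosen after their values were seen. Promoter sequences and coordinates are RefSeq's (GRCm38.p6, matching 7 of 10 members for promoters, without Ly6d, Cd79b and Ighm), and overlapping genes are from GENCODE M21. Motifs were searched in 250 bases with Python 3.11. Alternatives were another pseudocount, other filters, the values as deposited, quantile normalization, voom on recovered reads, a fit of the 2 groups compared, a replicate block and leaving out each library.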

Additional observations from a re-analysis of the deposited data

How the results depend on the processing

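Under 16 alternatives, the number of members called stayed at 1 (Cd53) between PHZ BM and control BM and at 0 in the other comparisons. Of 231 tested member differences, 216 kept their direction and side of the threshold and 15 changed sign, none of them called. Of the 96 spleen differences of Klrb1c, Ly6d and Cd53, which have no test, all kept their direction. For Klrb1c and Ly6d, 6 of them grew by at least 2 SE, with a pseudocount of 0.1 FPKM or by voom (up to 4.89 by voom). As given above, the pseudocount of 1 FPKM pulls these differences down. What raised the spleen levels was not tested. With no filter on low values, 205, 46 and 62 genes were called for PHZ BM against control BM, PHZ SP against control BM and PHZ SP against PHZ BM, where the reported counts are 311, 86 and 111. For PHZ SP against control BM, a pseudocount of 0.1 FPKM gave 39, the filter of 1 FPKM in at least 4 libraries 55, quantile normalization 55 and a fit of the 2 groups 44. For PHZ SP against PHZ BM, voom gave 65. Leaving out a library gave 115 to 306, 14 to 83 and 6 to 146. The lowest came without PHZ BM replicate 2, PHZ SP replicate 1 and PHZ SP replicate 2. A lone spleen library is then assumed to vary like the other groups.

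The sign changes, with the range over the fits that left out a library, were those of Dntt (0.32 with a pseudocount of 0.1 FPKM, 0.88 by voom and 0.07 without PHZ BM replicate 1 between the marrow groups, 0.68 with that pseudocount, 0.04 by quantile normalization, 1.31 by voom and 0.38 without PHZ SP replicate 1 against control BM, and -0.10 without PHZ BM replicate 1 in the spleen against PHZ BM, with ranges of -0.51 to 0.07, -0.37 to 0.38 and -0.10 to 0.54), of Cd79a between the marrow groups (0.04, 0.15 and 0.32 without control BM replicate 1, control BM replicate 3 and PHZ BM replicate 2, range -0.38 to 0.32), of Cd79b (0.00 without control BM replicate 2 between the marrow groups, -0.04 and -0.06 without control BM replicate 3 and PHZ SP replicate 1 in the spleen against control BM, ranges -0.48 to 0.00 and -0.06 to 0.43) and of Ikzf1 (-0.01 without control BM replicate 1 between the marrow groups, range -0.01 to 0.27).

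Whether the replicate numbers pair the samples is unknown, because the labels tie no library to an animal. Deviations of same-numbered libraries correlated at -0.008 to 0.06, and those of differently numbered libraries at -0.064 to 0.069. These values cannot decide on pairing, because low correlations over all genes do not exclude a shared animal. The deviations of the spleen libraries are also mirror images of each other. With a replicate block, 294, 73 and 112 genes were called. Cd53, whose replicates had the same order in each group, kept its call between the marrow groups (2.52). Its limma adjusted p was 0.0001 with the block and 0.00433 without. For Cd79a the adjusted p went from 0.162 to 0.0693 against control BM and from 0.175 to 0.0515 against PHZ BM. Depth limits Il7r and Ebf1, with at most 8 reads in any marrow library.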
